A study of Mus musculus with 8 samples.

Results

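Endothelial cells line the blood vessels of a graft and are the first donor cells that the blood of the recipient meets. In the single-cell libraries of mouse organ allografts, 56 of 47541 cells met a marker rule for endothelium. Each of these cells had at least 500 UMIs (unique molecular identifiers, 1 per captured RNA molecule), at most 10% mitochondrial UMIs, and at least 3 UMIs over Eng, Egfl7, Pecam1, Cdh5, Kdr and Plvap with at least 2 of these 6 genes detected. Cells with more than 2 UMIs of the fibroblast genes Dcn, Col3a1 and Col1a2, or more than 1 UMI of the T cell genes Cd3d, Cd3e, Cd3g and Trac, were left out. Since the cells were chosen by these 13 genes, their levels of them are given below as a description only. The study placed organs of BALB/c donors in C57BL/6J recipients without immunosuppression, with the liver grafted in its own site and the heart and kidney grafted elsewhere in the body, and took cells on day 7. Grafts were digested with type II collagenase, and 8 Microwell-seq libraries were made, 1 per condition, from parenchymal cells (PC) of liver and kidney, graft-infiltrating lymphocytes (TIL) of heart, liver and kidney, which were enriched on a density gradient, and blood mononuclear cells (PBMC) of recipients of each organ. The labels give every library as male, BALB/c and 8 weeks old, and do not say which cells came from the donor. By the study's methods 2 recipients of each organ were sampled, and whether their cells were pooled in a library is not given. The members came from liver PC (11 cells), the library labelled heart TIL (26 cells) and the library labelled liver TIL (19 cells).

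Endothelium differs between organs. Sinusoidal endothelial cells of the liver are thin and fenestrated, lack an organised basement membrane and clear waste from the blood through scavenger and lectin receptors such as Stab2, Lyve1, Clec4g and Fcgr2b. Capillaries of heart muscle are continuous and carry proteins of fatty acid uptake, among them Fabp4, Cd36 and Gpihbp1, and carbonic anhydrase 4 (Car4) on their surface. After transplantation, endothelium presents donor MHC molecules to recipient T cells, and under interferon gamma it makes more MHC, adhesion molecules and the chemokines Cxcl9, Cxcl10 and Cxcl11.

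With 1 library per condition there was no replicate, so no difference below was tested. Levels are UMIs summed over the cells as CPM, the UMIs of a gene in each 1000000 of the members' UMIs, with the exact Poisson 95% interval, shares carry the exact binomial 95% interval, and a ratio of CPM carries the exact conditional binomial 95% interval, all of which cover counting error only. Where 3 values follow each other, they belong to liver PC, the library labelled heart TIL and the library labelled liver TIL, in that order. A count of 0 allowed up to 3 UMIs, which came to 187 CPM in liver PC, 132 CPM in the library labelled heart TIL and 165 CPM in the library labelled liver TIL. Before any result, the organ labels of the 2 TIL libraries went against the RNA in them. The 9 hepatocyte genes listed for this check, Alb among them, were at 449 CPM in the non-member cells of the library labelled heart TIL, 2.19 CPM in those of the library labelled liver TIL and 255 CPM in those of liver PC. The 8 cardiomyocyte genes were at 26.1 CPM in the library labelled heart TIL, 174 CPM in the library labelled liver TIL and 28.8 CPM in liver PC. In the members, the hepatocyte genes had 16 UMIs in the library labelled heart TIL and 1 in the library labelled liver TIL, and the cardiomyocyte genes 0 and 5. The labels are kept here as given, and each direction between the 2 libraries is to be read with this in mind. Passing cells numbered 795 to 10000 per library, with a median of 581 to 1501.5 UMIs, and of the 56 members 1 in liver PC, 1 in the library labelled heart TIL and 3 in the library labelled liver TIL carried a barcode also found among the passing cells of another library.

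The promoters of 3 genes whose levels differed between the members of these libraries are shown first. They are those of Clec4g, a lectin of liver sinusoidal endothelium (gene at chr8:3707064-3720651, minus strand, GRCm38), Car4, the carbonic anhydrase of continuous capillaries (chr11:84957786-84966044, plus strand), and Ubd, a ubiquitin-like protein made under interferon gamma and tumour necrosis factor (chr17:37193892-37196095, plus strand). The 250 bases before the RefSeq start of each gene, from RefSeq on GRCm38.p6 and written 5′ to 3′ on the strand of the gene, are shown with matches to the letters AGGAAG, the core bound by the ETS factors of endothelium, in capitals.
Clec4g (chr8:3720652-3720901, minus strand): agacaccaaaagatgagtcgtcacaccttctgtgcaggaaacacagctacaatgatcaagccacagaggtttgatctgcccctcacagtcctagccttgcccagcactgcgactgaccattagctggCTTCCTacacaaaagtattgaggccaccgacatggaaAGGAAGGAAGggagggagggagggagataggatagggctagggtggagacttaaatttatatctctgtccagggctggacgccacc
Ubd (chr17:37193642-37193891, plus strand): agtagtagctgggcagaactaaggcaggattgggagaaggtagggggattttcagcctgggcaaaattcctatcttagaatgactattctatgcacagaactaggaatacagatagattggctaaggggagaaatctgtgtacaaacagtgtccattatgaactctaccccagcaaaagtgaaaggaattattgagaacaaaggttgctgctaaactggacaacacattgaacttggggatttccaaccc
Car4 (chr11:84957504-84957753, plus strand): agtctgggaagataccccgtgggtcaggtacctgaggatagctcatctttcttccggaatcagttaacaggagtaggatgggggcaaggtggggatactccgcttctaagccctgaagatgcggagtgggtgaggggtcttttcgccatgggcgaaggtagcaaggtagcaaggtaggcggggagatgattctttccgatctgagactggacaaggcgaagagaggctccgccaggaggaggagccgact
Both strands were searched for AGGAAG, for the GATA-type letters AGATAA, for TTCNNNGAA, to which STAT factors bind, and for a pair of GAAA runs with any 2 bases between them, to which interferon regulatory factors bind. The Clec4g window held 3 matches to AGGAAG, whose first bases lay 123, 86 and 82 bases before the start, the last 2 of which overlap by 2 bases, and no match to the other letters. Neither the Ubd nor the Car4 window held a match to any of them. Other forms of the letters bound by ETS factors were not searched for. Of all 32851 windows of this length, 29.5% held AGGAAG, 9.99% AGATAA, 7.02% TTCNNNGAA and 2.98% the pair of GAAA runs. The loci are those of GENCODE, whose start for Car4 lies downstream of the RefSeq start, so that the Car4 window does not abut it. A match is only a run of letters and no measured site.

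The members were rare in every library that held them. They made up 0.110% (0.0549 to 0.197) of the 10000 passing cells of liver PC, 0.269% (0.176 to 0.394) of 9668 in the library labelled heart TIL and 0.203% (0.123 to 0.318) of 9337 in the library labelled liver TIL. Neither kidney PC, with 795 passing cells, nor kidney TIL, with 2004, held a member, which allows shares of up to 0.377% and 0.150%. The first of these limits lies above the share of all 3 libraries with members and the second above that of liver PC alone. The planned comparisons with kidney members could therefore not be made. Of 10000 barcodes each, 9205 in kidney PC and 7995 in kidney TIL held fewer than 500 UMIs, and 3 of the latter met the gene conditions of the rule. Over all barcodes, the rule genes were at 51.5 CPM in kidney PC and 61.7 CPM in kidney TIL. They were at 37.8 CPM in liver PC and at 96.5 and 87.6 CPM in the libraries labelled heart TIL and liver TIL. No member was found in the blood libraries either, where a count of 0 allows 0.0386% of 7772 cells after heart grafts, 0.0440% of 6822 after liver grafts and 0.262% of 1143 after kidney grafts.

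**Figure D1:**
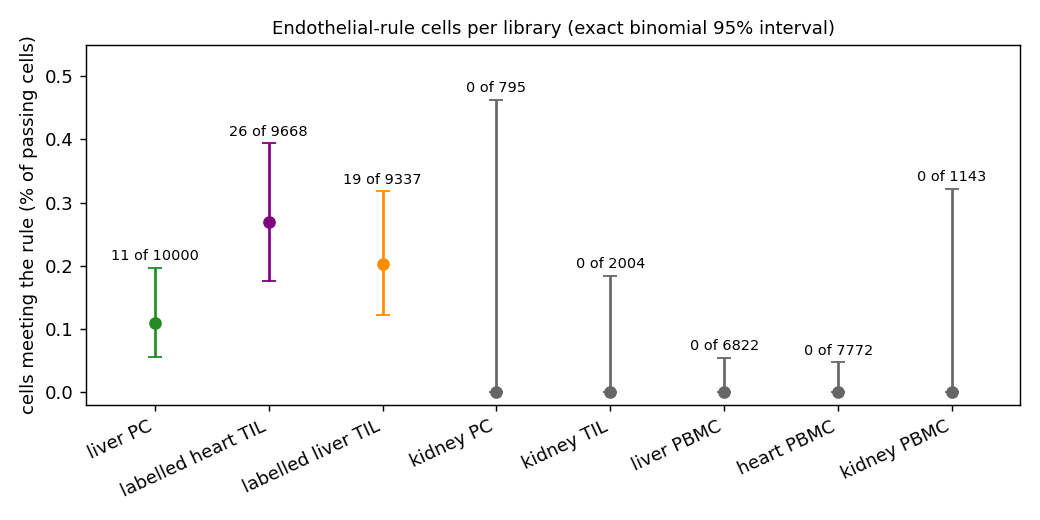
Share of passing cells that met the endothelial rule in each of the 8 libraries (vertical axis, % of passing cells), with the exact binomial 95% interval and the number of cells above it. The 3 libraries with members lie between 0.110% and 0.269%, and the upper bound of kidney PC, with 0 of 795 cells, lies above all 3 points.

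Over the 6 rule genes the members held a median of 8 UMIs in liver PC, 5 in the library labelled heart TIL and 6 in the library labelled liver TIL, with up to 19, 11 and 16. At the edge of the rule, 2, 5 and 4 members had just 3 of these UMIs, and 7, 8 and 8 cells that met the other conditions were left out with 2. The members held 13.7%, 15.7% and 16.6% of all rule-gene UMIs in passing cells, and the rest lay in cells outside the rule. Egfl7, a secreted protein of the vessel wall, was at 1747 CPM (28 UMIs, interval 1161 to 2525) in liver PC, 2381 CPM (54 UMIs, interval 1789 to 3107) in the library labelled heart TIL and 1930.3 CPM (35 UMIs, interval 1345 to 2685) in the library labelled liver TIL. Plvap, which forms the diaphragms of fenestrae, was at 1435, 1984 and 2316 CPM (23, 45 and 42 UMIs), and Eng, a co-receptor of BMP9, at 2184, 882 and 1324 CPM. These are the values that chose the cells. The limit on T cell genes removed 8 cells in liver PC, 23 in the library labelled heart TIL, 6 in the library labelled liver TIL and 2 in kidney PC, while the limit on fibroblast genes removed 9, all in the library labelled liver TIL.

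Endothelial genes that the rule did not use were also present. Of 20 such markers, 18 had a UMI in the liver PC members, 19 in those of the library labelled heart TIL and 20 in those of the library labelled liver TIL. Summed, they were at 6739 CPM (interval 5528 to 8136) in liver PC, 4674 CPM (interval 3827 to 5653) in the library labelled heart TIL and 5736 CPM (interval 4686 to 6949.8) in the library labelled liver TIL, against 87.7, 136 and 169 CPM in the other passing cells of the same libraries. This is 76.9-fold (62.7 to 93.4), 34.4-fold (27.9 to 42.0) and 33.9-fold (27.5 to 41.4) above the other cells, and the median log2 ratio over the 20 genes was 6.87, 5.16 and 5.18, beside -0.01, 0.07 and 0.13 over all genes with at least 10 UMIs in the members. Only 4 of the 20 markers reached 10 UMIs in each library, so these medians cover genes of unlike counts. Esam, an adhesion molecule of endothelial junctions, was at 1248 CPM (20 UMIs, interval 762 to 1927) in liver PC, 838 CPM (19 UMIs, interval 504 to 1308) in the library labelled heart TIL and 386 CPM (7 UMIs, interval 155 to 795) in the library labelled liver TIL. Ramp2, the partner of the adrenomedullin receptor, was at 749, 661 and 607 CPM (12, 15 and 11 UMIs). Cldn5, a claudin of endothelial tight junctions, was at 811, 132 and 165 CPM (13, 3 and 3 UMIs). The ETS factor Erg had 0 UMIs in every member.

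**Figure D2:**
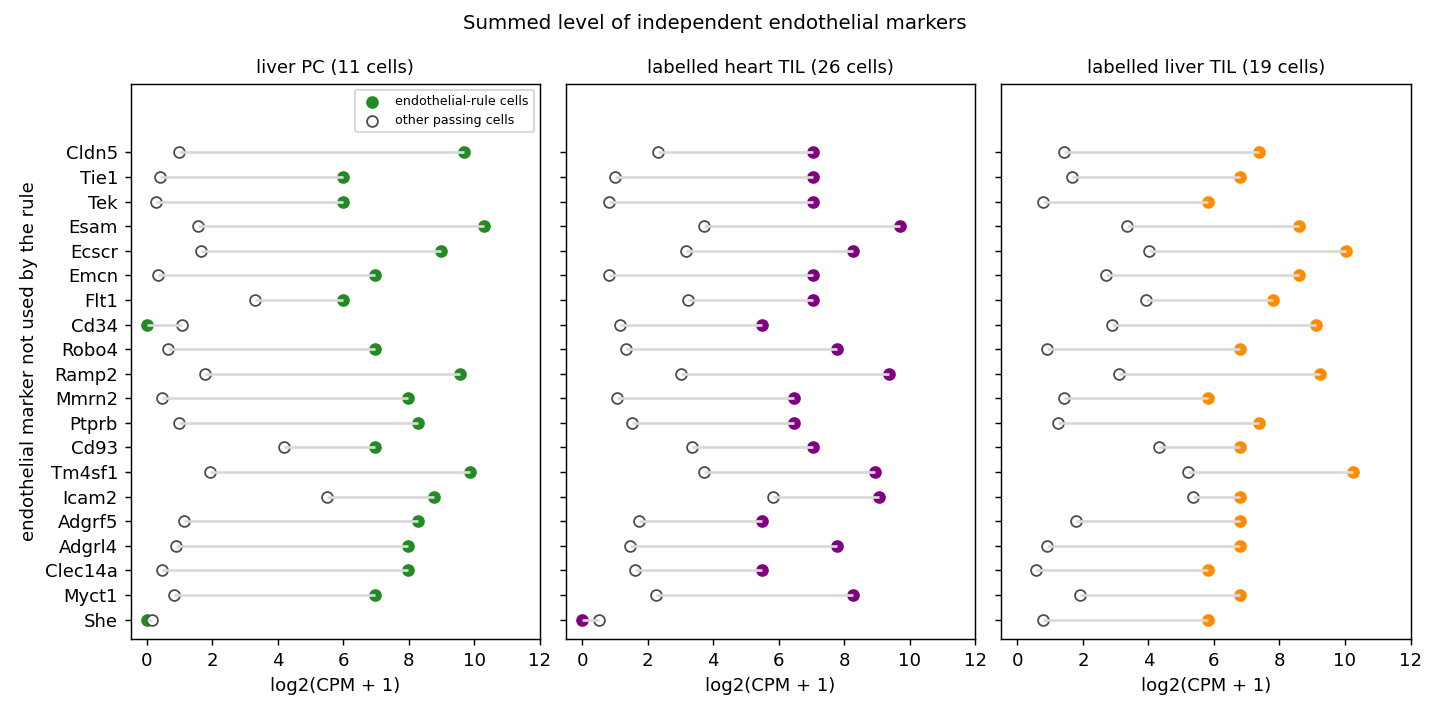
Level of 20 endothelial markers that the rule did not use, as log2(CPM + 1) of summed UMIs (horizontal axis), in the members (filled) and the other passing cells (open) of the 3 libraries. Nearly every marker lies to the right in the members, with exceptions for Cd34 in liver PC and She in liver PC and the library labelled heart TIL, where the members had 0 UMIs.

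Cell by cell, 51 of the 56 members had at least 1 UMI of these 20 markers and 44 had at least 2. After thinning every cell to 500 UMIs, the share of members with such a UMI was 8 of 11 (72.7%, 39.0 to 94.0), 20 of 26 (76.9%, 56.4 to 91.0) and 14 of 19 (73.7%, 48.8 to 90.9), against 4.18%, 6.12% and 7.21% of the other cells, and unthinned it was 81.8%, 92.3% and 94.7%. The label of endothelium thus rested on few UMIs per cell, and 5 members had none of the 20 markers. All 5, of which 2 were in liver PC, 2 in the library labelled heart TIL and 1 in the library labelled liver TIL, stood at the edge of the rule with 3 rule-gene UMIs. The 2 in liver PC and the 1 in the library labelled liver TIL also had 0 UMIs of the liver sinusoidal and continuous capillary lists, and 18, 24 and 10 UMIs of 8 leukocyte genes such as Ptprc and Tyrobp. Median depth was close between members and all passing cells, at 1285 against 1501.5 UMIs in liver PC, 786.5 against 794.5 in the library labelled heart TIL and 841 against 737 in the library labelled liver TIL.

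RNA of other cells was present in the members. The 8 leukocyte genes were at 7862 CPM (interval 6549 to 9360.4) in liver PC, 8289.6 CPM (interval 7147 to 9563) in the library labelled heart TIL and 6784 CPM (interval 5638 to 8094) in the library labelled liver TIL, which is 0.593, 0.585 and 0.490 times their level in the other cells, and 54 of 56 members had at least 1 of their UMIs. Hbb-bs, a haemoglobin gene, was at 22667 CPM in the members of the library labelled liver TIL and 28605 CPM in its other cells, whereas the members of liver PC and of the library labelled heart TIL had 0 UMIs of it. Igkc, the immunoglobulin kappa constant gene, was at 749, 1587 and 12960.5 CPM against 2856, 3513 and 24685 CPM in the other cells. The 10 T and NK cell genes beyond the rule were at 0.175, 0.413 and 0.258 times the level of the other cells. Lyz2, the lysozyme of myeloid cells, was at 0.312, 0.627 and 0.600 times that level. The 7 neutrophil genes were at 0.340 (0.257 to 0.441), 0.643 (0.526 to 0.777) and 1.13 (0.940 to 1.34) times it, and 2 of the 19 members of the library labelled liver TIL held 23 and 37 of its 128 UMIs of this list. The 8 platelet genes had 5, 9 and 1 UMIs, of which Clec1b gave 5, 8 and 0. Unlike the leukocyte genes, they stood 6.34-fold (2.06 to 14.9) above the other cells in liver PC. In the library labelled heart TIL they stood 5.27-fold (2.397 to 10.05) above them. In the library labelled liver TIL they were at 0.268 times that level, with an interval that included 1. The source of the Clec1b UMIs, platelets or the members themselves, was not tested. The hepatocyte, cardiomyocyte, mural, fibroblast and epithelial lists had 0 to 16 UMIs each per library. Whether this RNA was free in the wells or came from 2 cells under 1 barcode was not tested, and no doublet caller was run.

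Genes at least 4-fold higher in the members than in the other cells of their library, among genes with at least 10 UMIs in the members, numbered 40 of 285 in liver PC (14.0%), 44 of 440 in the library labelled heart TIL (10%) and 41 of 312 in the library labelled liver TIL (13.1%). Liver PC shared 28 of them with the library labelled heart TIL (70% of its own and 63.6% of the other) and 15 with the library labelled liver TIL (37.5% and 36.6%), and the 2 TIL libraries shared 18 (40.9% of the first and 43.9% of the second). A gene below 10 UMIs in a library could not enter its set, so a gene outside an overlap may still be raised in both libraries. Tmem88, at 9 UMIs in liver PC, was in the sets of the 2 TIL libraries only. How many genes reached 10 UMIs in both libraries of a pair was not counted. The 13 genes found in all 3 sets were Aqp1, Ctla2a, Fabp4, Gbp4, Gpihbp1, Igfbp7, Iigp1, Ramp2, Serpina3g, Sparc, Tinagl1, Tm4sf1 and Ubd. They span a water channel (Aqp1), fatty acid carriage (Fabp4 and Gpihbp1), matrix proteins (Igfbp7, Sparc and Tinagl1) and genes induced by interferon gamma (Gbp4, Iigp1 and Ubd). The 15 genes whose lowest ratio over the other cells was highest across the 3 libraries were Gpr182, Tmem88, Ramp2, Sorbs3, Gpihbp1, Fabp4, Tinagl1, Aqp1, Adgrl4, Robo4, Emcn, Tspan7, Ackr1, Cyp4b1 and Jam2. This order set no minimum of UMIs in each library, and in the library labelled liver TIL it rested on 1 UMI of Cyp4b1, and on 2 UMIs of Gpr182 and 3 of Tspan7 that lay in 1 cell for each gene. Sorbs3, Adgrl4, Robo4 and Emcn did not reach 10 UMIs in any of the 3 libraries. Tmem88 was at 562, 485 and 827 CPM (9, 11 and 15 UMIs), which was 468-fold (190.5 to 1049), 92.2-fold (43.2 to 180.1) and 358-fold (169 to 743) above the other cells.

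Fabp4, the fatty acid binding protein of capillary endothelium (chr3:10204088-10208576, minus strand), was at 2059 CPM (33 UMIs, interval 1417 to 2892) in liver PC, 3836 CPM (87 UMIs, interval 3073 to 4732) in the library labelled heart TIL and 3750.3 CPM (68 UMIs, interval 2912 to 4754) in the library labelled liver TIL. It was found in 9 of 11, 20 of 26 and 10 of 19 members. The 2 TIL libraries differed by 1.02-fold (0.736 to 1.43), an interval that includes no difference. After thinning, 7 of 11 (63.6%, 30.8 to 89.1), 17 of 26 (65.4%, 44.3 to 82.8) and 10 of 19 (52.6%, 28.9 to 75.6) of the members had a Fabp4 UMI, against 0.521%, 2.02% and 2.23% of the other cells, and unthinned the members' shares were 81.8%, 76.9% and 52.6%. Ctla2a, a cysteine protease inhibitor, was at 1310.3, 2998 and 4743 CPM (21, 68 and 86 UMIs), of which 33 UMIs lay in 1 cell of the library labelled liver TIL. Sparc, a secreted matrix protein, was at 2496, 1719.7 and 2702 CPM (40, 39 and 49 UMIs). All 3 genes were spread over many members of each library, Sparc over 9, 16 and 12 of them.

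The liver sinusoidal genes divided the libraries. Summed over 14 genes they were at 6489 CPM (interval 5302 to 7863) in liver PC, 5379 CPM (interval 4467 to 6423) in the library labelled heart TIL and 607 CPM (interval 303 to 1085) in the library labelled liver TIL. In the last of these they were 1.38-fold (0.690 to 2.48) their level in the other cells, while they were 21.1-fold (17.2 to 25.6) above the other cells in liver PC and 15.6-fold (12.9 to 18.7) in the library labelled heart TIL. Members of the library labelled heart TIL were thus 8.87-fold (4.78 to 18.2) higher than those of the library labelled liver TIL, and 9, 12 and 5 of the 14 genes had a UMI in the 3 libraries. After thinning, 9 of 11 (81.8%, 48.2 to 97.7), 21 of 26 (80.8%, 60.6 to 93.4) and 5 of 19 (26.3%, 9.15 to 51.2) of the members had a UMI of the list, against 12.8%, 15% and 18.8% of the other cells, and unthinned the members' shares were 81.8%, 92.3% and 31.6%. The share in the library labelled liver TIL overlapped with that of its other cells. Without the 5 cells whose barcode was also found in another library, the list was at 5900.3, 5581 and 450.1 CPM, and its log2 ratio between the libraries labelled liver TIL and heart TIL was -3.63 in place of -3.15.

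Clec4g, whose promoter is printed above, was at 1061 CPM (17 UMIs, interval 618 to 1698) in liver PC, 1808 CPM (41 UMIs, interval 1297 to 2453) in the library labelled heart TIL and 0 UMIs in the library labelled liver TIL. It was at 1.62 and 9.42 CPM in the other cells of the first 2 libraries, and it was not listed among the genes of the library labelled liver TIL. The ratio between the TIL libraries was at least 10.9-fold. Lyve1, a hyaluronan receptor of sinusoids and lymphatics, was at 437 CPM (7 UMIs, interval 176 to 899.9) in liver PC, 705 CPM (16 UMIs, interval 403 to 1146) in the library labelled heart TIL and 0 UMIs in the library labelled liver TIL, a ratio of at least 4.26-fold. Gpr182, an atypical chemokine receptor of sinusoids, was at 374, 882 and 110.3 CPM (6, 20 and 2 UMIs), a ratio of 8.00-fold (1.94 to 70.5). All of the 2 Gpr182 UMIs in the library labelled liver TIL lay in 1 cell. The other cells of the TIL libraries leaned the same way for both genes. After thinning, 0.508% of those labelled heart TIL and 0% of those labelled liver TIL had Lyve1, and 0.394% and 0.0107% had Gpr182. Fcgr2b, the inhibitory Fc receptor with which sinusoids clear immune complexes, was at 2433, 926 and 165 CPM (39, 21 and 3 UMIs), a ratio of 5.60-fold (1.67 to 29.3). Among members with at most 2 leukocyte UMIs, 3 in the library labelled heart TIL and 2 in the library labelled liver TIL, the direction of Fcgr2b turned, with a log2 ratio of 9.41 towards the library labelled liver TIL. The latter 2 members held 1 UMI of the whole sinusoidal list, so this turn rested on 1 UMI. B cells and macrophages also express Fcgr2b, and the other cells of the 3 libraries held 222, 246 and 372 CPM, so in the library labelled liver TIL the members were below them. Oit3 was at 811, 220.5 and 0 CPM (13, 5 and 0 UMIs), and Stab2, the hyaluronan scavenger receptor, had 2, 3 and 0 UMIs. Of the remaining genes of the list, Stab1 (8, 3 and 1 UMIs), Mrc1 (7, 2 and 0) and Dnase1l3 (5, 6 and 0) had their fewest UMIs in the library labelled liver TIL, and Bmp2 (0, 3 and 4 UMIs) did not. Between the TIL libraries, the counts of Stab1, Mrc1 and Bmp2 are too low to give a direction.

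**Figure D3:**
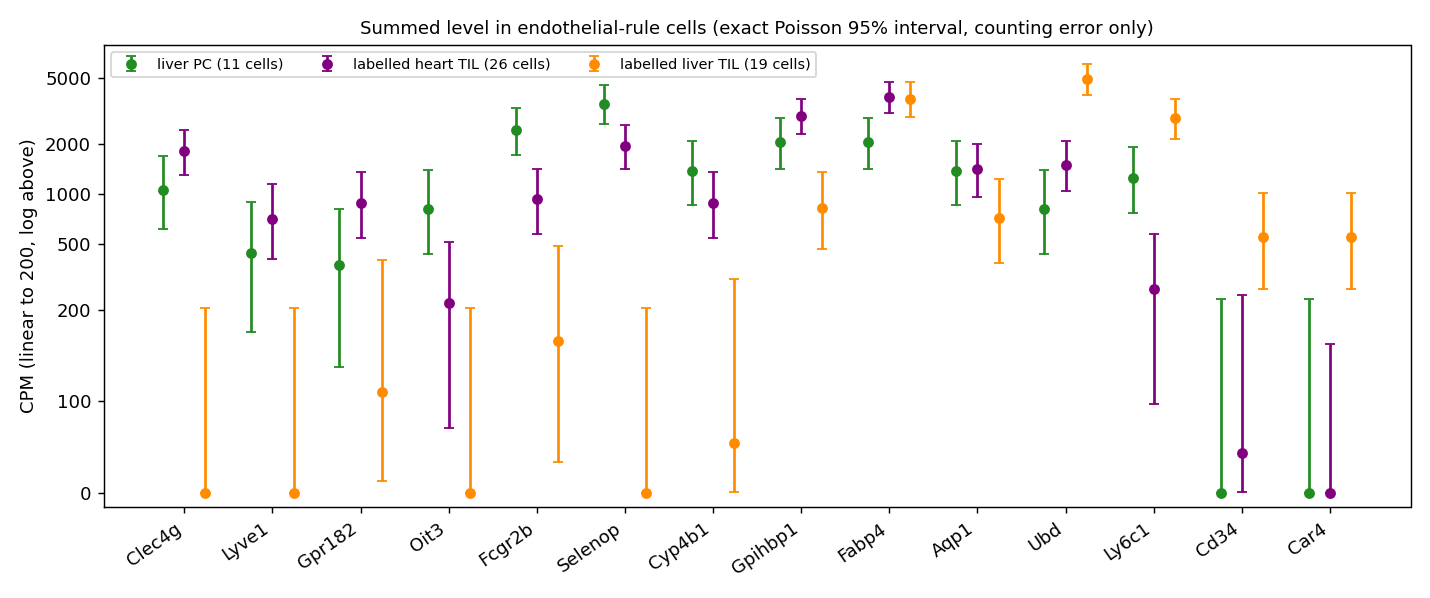
Summed level of 14 genes in the members of the 3 libraries, in CPM on an axis that is linear up to 200 and logarithmic above, with exact Poisson 95% intervals, whose upper ends at 0 UMIs are those of the exact interval and lie somewhat above the limit of 3 UMIs. From Clec4g to Cyp4b1 the library labelled liver TIL lies lowest, at 0 UMIs for Clec4g, Lyve1, Oit3 and Selenop, whereas for Ubd, Ly6c1, Cd34 and Car4 it lies highest.

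In single cells the list was spread over most members of liver PC, with a median of 10 UMIs, a highest value of 17 and 0 UMIs in 2 of 11 cells. For the library labelled heart TIL the median was 3.5 UMIs and the highest 16, with 0 in 2 of 26 cells. Of the 19 cells of the library labelled liver TIL 13 had 0 and no cell had more than 3. The members of that library with 0 sinusoidal UMIs included the cell with the most UMIs of the independent markers, 18. In the library labelled heart TIL, the cell with the most of these markers, 16, had 1 sinusoidal UMI.

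**Figure D4:**
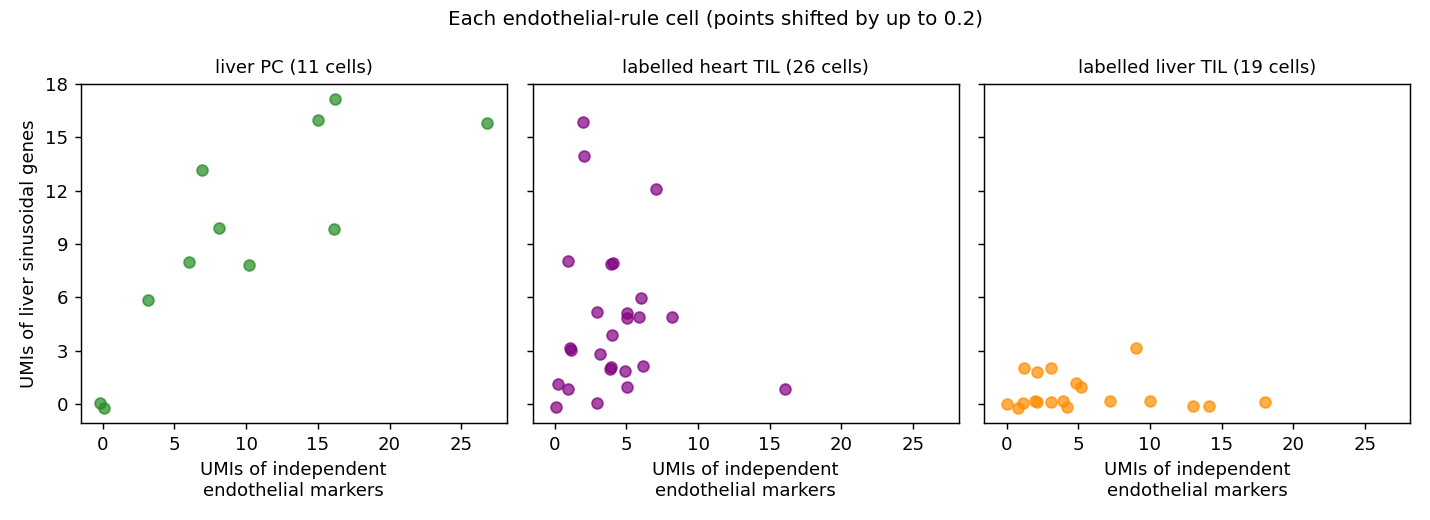
UMIs of the 14 liver sinusoidal genes (vertical axis) against UMIs of the 20 independent endothelial markers (horizontal axis) in each member of the 3 libraries, with points shifted by up to 0.2 so that equal values can be seen. Members of the library labelled liver TIL stay at or below 3 sinusoidal UMIs whatever their number of endothelial UMIs.

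The list of continuous capillary genes of the heart did not divide the libraries in the same way. Its 12 genes were at 6489 CPM (interval 5302 to 7863) in liver PC, 8775 CPM (interval 7598 to 10082) in the library labelled heart TIL and 7004 CPM (interval 5839 to 8334) in the library labelled liver TIL, and the members of the library labelled heart TIL were 1.25-fold (0.998 to 1.58) higher than those of the library labelled liver TIL. Gpihbp1, which carries lipoprotein lipase across capillaries (chr15:75596628-75599481, plus strand), was at 2059 CPM (33 UMIs, interval 1417 to 2892) in liver PC, 2954 CPM (67 UMIs, interval 2289.5 to 3752) in the library labelled heart TIL and 827 CPM (15 UMIs, interval 463 to 1364) in the library labelled liver TIL, a ratio of 3.57-fold (2.02 to 6.73) towards the library labelled heart TIL. Of the 15 Gpihbp1 UMIs in the library labelled liver TIL, 8 lay in 1 cell, and 4 cells held any. The other cells leaned the same way. After thinning, 1.87% of those labelled heart TIL and 0.676% of those labelled liver TIL had Gpihbp1. Aqp1, the water channel, was at 1373, 1411 and 717 CPM (22, 32 and 13 UMIs), and 12 of the 13 UMIs in the library labelled liver TIL came from 1 cell. Other genes of the same list leaned the other way. Car4 was at 0 UMIs in liver PC, 0 UMIs in the library labelled heart TIL and 552 CPM (10 UMIs, interval 264 to 1014) in the library labelled liver TIL, a ratio of at least 4.17-fold, and Cav1, the coat protein of caveolae, had 0, 1 and 7 UMIs. For Car4 the other cells leaned the same way, with a UMI after thinning in 0.0859% of those labelled liver TIL and 0.0104% of those labelled heart TIL. The members of liver PC had no UMI of Car4 or Cav1 and held Fabp4, Gpihbp1 and Aqp1.

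Genes of other vessel types were sparse. The arterial connexin Gja4 had 9 UMIs in liver PC, 5 in the library labelled heart TIL and 0 in the library labelled liver TIL. Of the venous list, Ackr1, which binds chemokines on venules, had 9, 11 and 3 UMIs, a ratio of 2.93-fold (0.774 to 16.4) between the TIL libraries. The ratio turned with at most 2 leukocyte UMIs (log2 ratio 2.16), where the members labelled heart TIL held 1 UMI of the venous list. Von Willebrand factor (Vwf) had 3, 0 and 2 UMIs. The lymphatic list rested on Flt4 (9, 2 and 0 UMIs), a receptor of VEGF-C that liver sinusoids also carry, and on 2 further UMIs in the library labelled heart TIL. No UMI of the 4 endocardial genes was found in any member, which allows the limits given above. Of the kidney list, Tspan7 had 14, 16 and 3 UMIs and was 4.26-fold (1.22 to 22.8) higher in the library labelled heart TIL. Its 3 UMIs in the library labelled liver TIL lay in 1 cell, whose barcode was also found in another library.

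Between the members of the 2 TIL libraries, 509 genes had at least 10 UMIs in the higher one, and a gene was called where log2(CPM + 1) differed by at least 1. Of these, 59 (11.6%) were called higher in the library labelled liver TIL and 98 (19.3%) in the library labelled heart TIL. The 95% interval of the ratio lay clear of 1 for 40 of the 59 and 46 of the 98. The median log2 ratio of all 509 genes was -0.26, towards the library labelled heart TIL. Haemoglobin and other erythroid genes gave 697 of the 18132 UMIs of the members labelled liver TIL. They gave 3 of the 22679 of those labelled heart TIL. With these totals, the minimum of 10 UMIs was a lower CPM in the library labelled heart TIL, so genes could pass more easily through it. What set the median and the split of the calls was not tested. With the ratios centred on this median, the calls were 75 and 69, and the share of calls higher in the library labelled liver TIL was 52.1% in place of 37.6%. Calls that were also at least 2-fold above the other cells of the higher library numbered 31 towards the library labelled liver TIL and 29 towards the library labelled heart TIL, with intervals clear of 1 for 22 and 21.

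In the library labelled heart TIL, the 8 genes with the largest ratios among those 29 were Selenop, Clec4g, Lyve1, Saa2, Degs1, Cyp4b1, Fcgrt and Gpr182. Selenop, the selenium transport protein (chr15:3268547-3280508, plus strand), was at 3494 CPM (56 UMIs, interval 2639 to 4537) in liver PC, 1940.1 CPM (44 UMIs, interval 1409.7 to 2605) in the library labelled heart TIL and 0 UMIs in the library labelled liver TIL, a ratio of at least 11.7-fold. In the other cells of these 2 libraries its levels were close, at 132 and 136 CPM. Cyp4b1, a cytochrome P450, was at 1373, 882 and 55.2 CPM (22, 20 and 1 UMIs), a ratio of 16.0-fold (2.56 to 663). The other cells leaned the same way for Cyp4b1, found after thinning in 0.498% of those labelled heart TIL and 0.0215% of those labelled liver TIL. Degs1, which makes ceramide, was at 1061, 1146 and 55.2 CPM (17, 26 and 1 UMIs), a ratio of 20.8-fold (3.41 to 852), and Fcgrt, the receptor that recycles IgG and albumin, had 8, 15 and 1 UMIs, a ratio of 12-fold (1.85 to 505). The direction of Fcgrt also turned among the members with at most 2 leukocyte UMIs, with a log2 ratio of 1.16. This turn rested on the 1 UMI of the library labelled liver TIL. Saa2, an acute-phase protein of hepatocytes, had 0, 11 and 0 UMIs in the members and 85.2, 200.4 and 0.243 CPM in the other cells, where it differed in the same direction.

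In the library labelled liver TIL, the largest ratios among the 31 included those of Car4, Prnp, Cyr61, Cd34, Fn1, Ly6c1 and Cd9. Ly6c1, a surface protein of capillary endothelium and of lymphocytes, was at 1248 CPM (20 UMIs, interval 762 to 1927) in liver PC, 265 CPM (6 UMIs, interval 97.1 to 576) in the library labelled heart TIL and 2868 CPM (52 UMIs, interval 2142 to 3761) in the library labelled liver TIL, a ratio of 10.8-fold (4.66 to 30.9). Its UMIs were spread over 14 of 19 cells, and the other cells of these libraries leaned the same way, at 57.3 against 7.12 CPM. In liver PC, 16 of its 20 UMIs lay in 1 cell. Cd34, a sialomucin of capillaries, was at 0, 44.1 and 552 CPM (0, 1 and 10 UMIs), a ratio of 12.5-fold (1.78 to 543). Cyr61, a matrix protein that responds to shear, was at 0, 44.1 and 662 CPM (0, 1 and 12 UMIs), a ratio of 15-fold (2.22 to 642), and the tetraspanin Cd9 was 6.67-fold (1.91 to 35.7) higher. The other cells leaned the same way for Cd34, Cyr61 and Cd9. After thinning, 0.258% of those labelled liver TIL and 0.0519% of those labelled heart TIL had Cd34. For Cyr61 these shares were 0.751% and 0.228%, and for Cd9 6.87% and 2.42%. Prnp (8 of 10 UMIs in 1 cell) and the fibronectin gene Fn1 (9 of 10) rested on 1 cell each, and with at least 1000 UMIs per cell the log2 ratio of Fn1 turned to -7.07. That turn rested on the 1 UMI of Fn1 in the library labelled heart TIL.

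Ubd was among the genes above the other cells in all 3 libraries and was called between the TIL libraries. It was at 811 CPM (13 UMIs, interval 432 to 1387) in liver PC, 1499 CPM (34 UMIs, interval 1038 to 2095) in the library labelled heart TIL and 4964 CPM (90 UMIs, interval 3991 to 6101) in the library labelled liver TIL. The other cells had 15.7, 83 and 54.4 CPM, so the members were 51.8-fold (27.3 to 89.9), 18.1-fold (12.4 to 25.5) and 91.3-fold (72.0 to 115) above them. The members of the library labelled liver TIL were 3.31-fold (2.21 to 5.07) above those of the library labelled heart TIL, and with the cell richest in Ubd left out 73 and 25 UMIs remained, while the other cells of these libraries leaned the opposite way.

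**Figure D5:**
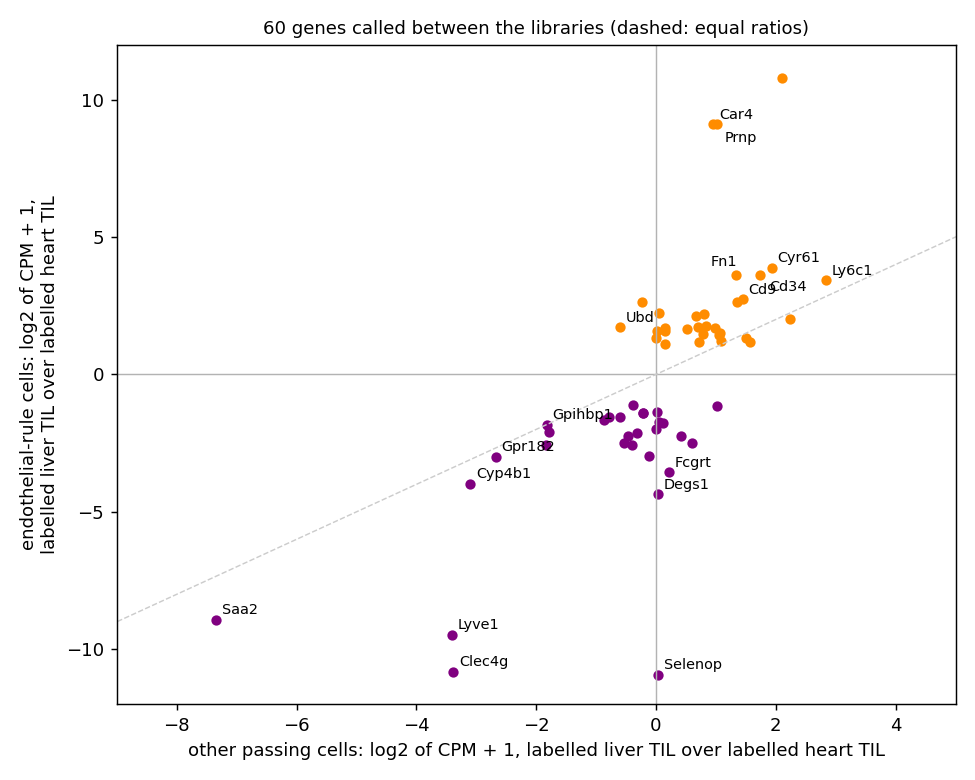
For 60 genes called between the TIL libraries and at least 2-fold above the other cells, the log2 ratio of CPM + 1 between the members of the library labelled liver TIL and those of the library labelled heart TIL (vertical axis) against the same ratio in the other passing cells (horizontal axis). Of the 31 genes above 0, 14 were at least 2-fold higher in the same direction in the other cells, and of the 29 below 0, 8 were. Selenop and Ubd show no such lean in the other cells.

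Receptors of vessel growth and quiescence were detected at low counts. Of 18 genes of the VEGF, angiopoietin and Notch list, 6, 9 and 7 had a UMI, none reached 10, and summed they were at 1123 CPM (interval 666 to 1775) in liver PC, 794 CPM (interval 470.4 to 1254) in the library labelled heart TIL and 938 CPM (interval 546 to 1501) in the library labelled liver TIL, which was 13.5-fold (7.96 to 21.3), 15.4-fold (9.02 to 24.5) and 10.5-fold (6.08 to 16.9) above the other cells, with a median log2 ratio of -0.24, 3.58 and -0.51. The VEGF receptor Flt1 had 1, 3 and 4 UMIs and Notch1 had 0, 0 and 4. The 14 genes of BMP and TGF-beta signalling were at 1.29 (0.80 to 1.98), 1.61 (1.15 to 2.18) and 2.06 (1.43 to 2.87) times the level of the other cells, with a median log2 ratio of 0.56, -1.69 and 1.35 over genes of which 8, 5 and 8 had a UMI. Id2, which lymphocytes also express, was at 0.470, 0.795 and 0.472 times that level and was called 2.13-fold (0.792 to 6.65) higher in the library labelled heart TIL, with an interval that included 1. Id3, a target of BMP signalling, was at 249.6, 794 and 662 CPM (4, 18 and 12 UMIs), and Id1 had 4, 2 and 7 UMIs. No transcription factor of the 20 listed for endothelium reached 10 UMIs, among them Lmo2 (2, 0 and 4 UMIs), Tal1 (0, 0 and 3) and Gata4, a factor of liver sinusoids, with 1 UMI, in the library labelled heart TIL.

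Adhesion molecules and chemokines bear on how leukocytes enter a graft. The 12 adhesion genes were at 2683 CPM (interval 1942 to 3614) in liver PC, 2337 CPM (interval 1751 to 3057) in the library labelled heart TIL and 1985 CPM (interval 1391 to 2749) in the library labelled liver TIL, 3.63-fold (2.62 to 4.89), 3.18-fold (2.38 to 4.17) and 3.10-fold (2.17 to 4.30) above the other cells, and the ratio between the TIL libraries, 1.18-fold (0.756 to 1.85) towards the library labelled heart TIL, included no difference. Vcam1, the ligand of the integrin VLA-4, was at 624, 265 and 276 CPM (10, 6 and 5 UMIs), that is 10.7-fold (5.10 to 19.7), 4.09-fold (1.5 to 8.96) and 4.46-fold (1.44 to 10.5) above the other cells. In liver PC, 6 of the 10 Vcam1 UMIs lay in 1 cell. Jam2, a junctional adhesion molecule, was at 811, 485 and 276 CPM (13, 11 and 5 UMIs). Icam1, the ligand of LFA-1, had 2, 9 and 5 UMIs and was 0.788, 2.71 and 2.17 times as high as in the other cells, and Icam2 had 7, 12 and 2 UMIs, a ratio of 4.80-fold (1.07 to 44.1) towards the library labelled heart TIL. Sele, which captures leukocytes on inflamed vessels, gave no UMI in any member.

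The interferon-induced chemokine Cxcl9 (chr5:92321347-92328079, minus strand), which draws Cxcr3-bearing T cells, was at 2558 CPM (41 UMIs, interval 1836 to 3470.5) in liver PC, 1279 CPM (29 UMIs, interval 856 to 1836) in the library labelled heart TIL and 1599 CPM (29 UMIs, interval 1071 to 2297) in the library labelled liver TIL, 4.04-fold (2.90 to 5.48), 2.89-fold (1.93 to 4.15) and 2.11-fold (1.41 to 3.04) above the other cells. Cxcl11 was at 499, 265 and 717 CPM (8, 6 and 13 UMIs), which was 39.0-fold (16.7 to 78.1), 13.6-fold (4.94 to 30.3) and 17.4-fold (9.19 to 30.2) above them, and Cxcl10 was 2.15-fold (1.07 to 3.86), 2.66-fold (1.33 to 4.78) and 2.77-fold (1.61 to 4.44) above them. In liver PC, 7 UMIs of Cxcl10 lay in 1 cell and 4 in the other members. Cxcl11 was called 2.71-fold (0.961 to 8.69) higher in the library labelled liver TIL than in the library labelled heart TIL, with an interval that included 1. With at most 2 leukocyte UMIs its direction turned (log2 ratio -8.25), on 1 UMI in the library labelled heart TIL. Ccl5, made by T and NK cells, was at 0.198, 0.383 and 0.347 times its level in the other cells. The whole list of 13 chemokines and chemokine receptors, to which Ccl5 gave 126807 of 161151 UMIs in the other cells of liver PC, was below them, at 0.764, 0.654 and 0.801 times.

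Genes of MHC class I were abundant in the members of all 3 libraries. The 14 genes were at 38248 CPM (interval 35279.7 to 41399) in liver PC, 37744 CPM (interval 35258 to 40359.7) in the library labelled heart TIL and 40371 CPM (interval 37499 to 43404) in the library labelled liver TIL, 1.75-fold (1.61 to 1.90), 1.86-fold (1.74 to 1.99) and 1.79-fold (1.67 to 1.93) above the other cells, and none of them was called between the TIL libraries. The interval lay above 1 for 4, 3 and 4 of the 13 genes listed in each table, and the median log2 ratio over the list was 0.21, 0.77 and 0.51. Psmb8, a subunit of the immunoproteasome, was at 0.690, 0.757 and 1.30 times the level of the other cells. H2-D1, a classical class I heavy chain, was at 9047 CPM (145 UMIs, interval 7635 to 10646) in liver PC, 11288 CPM (256 UMIs, interval 9947 to 12759) in the library labelled heart TIL and 11251 CPM (204 UMIs, interval 9759.8 to 12905) in the library labelled liver TIL and stood 3.01-fold (2.54 to 3.54), 3.37-fold (2.97 to 3.81) and 3.31-fold (2.87 to 3.80) above the other cells, in which it is expressed as well. H2-K1 was 2.30-fold (1.88 to 2.80), 1.85-fold (1.48 to 2.29) and 1.42-fold (1.10 to 1.82) and B2m, the light chain, 1.57-fold (1.39 to 1.76), 1.71-fold (1.55 to 1.88) and 1.58-fold (1.42 to 1.75) above them. H2 genes differ between BALB/c and C57BL/6J and resemble each other, so the split of reads among them is uncertain. The 9 genes of MHC class II were at 1.09 (0.952 to 1.25), 0.678 (0.599 to 0.765) and 0.651 (0.581 to 0.728) times the level of the other cells, beside the leukocyte RNA described above, and their part in it was not tested. Cd74, the invariant chain, was at 5304, 6085 and 6949 CPM (85, 138 and 126 UMIs), and H2-Aa, the alpha chain of I-A, was called 2.32-fold (1.33 to 4.16) higher in the library labelled liver TIL. In the other cells of these 2 libraries H2-Aa also leaned that way, at 3356 against 2001 CPM.

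Interferon response genes were detected in every member, with at least 4 UMIs of the 18 genes in each of the 56 cells. Most other cells had them too, 97.4%, 95.4% and 97.3% of them with at least 1 such UMI. Ifitm3 alone was found in every member and gave 94 of the 234 UMIs of the list, 127 of 267 and 135 of 315. No ungrafted tissue was among the libraries, so whether grafting raised these levels was not tested. Summed, the list was at 14600.4 CPM (interval 12789 to 16596) in liver PC, 11773 CPM (interval 10403 to 13273) in the library labelled heart TIL and 17373 CPM (interval 15507 to 19401) in the library labelled liver TIL, 2.85-fold (2.5 to 3.24), 2.13-fold (1.89 to 2.41) and 2.37-fold (2.11 to 2.65) above the other cells, with a median log2 ratio of 1.43, 0.36 and 1.0. Ifitm3, a membrane protein that restricts viral entry, was at 5865 CPM (94 UMIs, interval 4739.6 to 7177) in liver PC, 5599.9 CPM (127 UMIs, interval 4668 to 6663) in the library labelled heart TIL and 7445 CPM (135 UMIs, interval 6242 to 8813) in the library labelled liver TIL, and the guanylate-binding protein Gbp4 at 1310.3, 1235 and 1820.0 CPM (21, 28 and 33 UMIs). Gbp4 stood 9.37-fold (5.79 to 14.4), 8.62-fold (5.71 to 12.5) and 7.45-fold (5.11 to 10.5), the GTPase Iigp1 9.68-fold (6.05 to 14.7), 5.62-fold (3.38 to 8.82) and 4.27-fold (2.70 to 6.42) and the membrane protein Bst2 5.84-fold (3.66 to 8.85), 4.84-fold (3.15 to 7.11) and 3.14-fold (1.83 to 5.04) above the other cells. Not all genes of the list did so: Isg15, a ubiquitin-like protein, was at 2.52, 0.960 and 1.30 times the level of the other cells. In liver PC, unthinned, 2 of 11 members (18.2%) had a Gbp2 UMI, against 44.2% of the other cells. For Igtp it was 1 of 11 (9.09%) against 24.9%. Between the TIL libraries, 3 of 9 genes with enough UMIs, Gbp2, Igtp and Irf1, were called higher in the library labelled liver TIL and 0 in the other, beside 11.6% and 19.3% of all genes tested. The interval of Irf1, 2.71-fold (0.961 to 8.69), included 1, and the summed ratio was 1.48-fold (1.25 to 1.74). The other cells of that library held 7337 CPM against 5517 CPM, a lean in the same direction. The Gbp genes, the GTPases Igtp and Iigp1 and the Serpina3 genes belong to families of similar sequence, and reads may be split among their members.

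Genes of vessel tone were sparse. Edn1, the vasoconstrictor endothelin 1, had 1, 0 and 6 UMIs, and Ece1, which activates it, was at 312, 176 and 552 CPM (5, 4 and 10 UMIs). Matrix genes, summed, stood 32.3-fold (25.8 to 39.9), 25.9-fold (20.8 to 32.0) and 8.43-fold (6.98 to 10.1) above the other cells, with 6, 8 and 13 of 14 genes detected and a median log2 ratio of -0.27, 1.94 and 4.54. The sum and the median thus ran in opposite order, and Sparc and Igfbp7 gave 40 and 28 of the 88 UMIs of the list in liver PC, 39 and 37 of 92 in the library labelled heart TIL and 49 and 21 of 120 in the library labelled liver TIL. Summed, they were 1.63-fold (1.23 to 2.16) higher in the library labelled liver TIL. The other cells leaned the same way, at 785 CPM in the library labelled liver TIL against 157 CPM in the library labelled heart TIL. Col4a1, a chain of basement membrane collagen, was at 624, 309 and 717 CPM (10, 7 and 13 UMIs), a ratio of 2.32-fold (0.861 to 6.88), and Igfbp7 at 1747, 1631 and 1158 CPM (28, 37 and 21 UMIs), a ratio of 1.41-fold (0.803 to 2.53) the other way. Mgp, which fibroblasts also make, had 0, 0 and 6 UMIs and was 1.04-fold (0.381 to 2.27) its level in the other cells there.

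Lipid handling genes, summed, were 9.08-fold (7.28 to 11.2), 15.2-fold (12.9 to 17.7) and 9.45-fold (7.72 to 11.5) above the other cells, but Fabp4 and Gpihbp1 gave 33 each of their 88 UMIs in liver PC, 87 and 67 of 167 in the library labelled heart TIL and 68 and 15 of 106 in the library labelled liver TIL. The median log2 ratio of the 10 genes was 0.60, 0.19 and 2.05, and the interval lay above 1 for 3, 3 and 4 of them. Cd36, the fatty acid translocase, was at 562, 220.5 and 386 CPM (9, 5 and 7 UMIs). Cell cycle genes were sparse. The 12 genes gave 11, 28 and 16 UMIs, 0.341, 0.675 and 0.673 times the level in the other cells, with intervals of 0.170 to 0.610, 0.449 to 0.977 and 0.385 to 1.09. Early response and heat shock genes, which tissue digestion can raise, were at 1.13, 1.03 and 0.912 times the level of the other cells, and all 3 intervals included 1.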

How the data were processed

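Microwell-seq libraries of 8 conditions, 1 each, were used. The authors demultiplexed reads (bcl2fastq), aligned them with STAR to GRCm38, removed reads with several alignments, merged UMIs 1 edit apart and deposited raw UMI counts per gene for 10000 barcodes per library, 3418722 to 19171264 UMIs in all. Here a barcode had to hold 500 UMIs and no more than 10% mitochondrial ones before the marker rule was applied. The cells, gene lists and comparisons were chosen with earlier results of these data known. UMIs were summed over members and scaled to CPM. To be called, a gene needed 10 UMIs and a 2-fold (between libraries) or 4-fold (over other cells) difference of CPM + 1. Intervals are exact, and no condition had 2 libraries to test. Genes named are those of 35 lists, the 8 largest ratios in each direction that were also 2-fold over other cells, and the 15 most above other cells in all libraries with no UMI minimum in each, without mitochondrial, ribosomal and rule genes. Genes noted for resting on 1 cell or for their level in other cells were singled out after their values were seen. Results of some genes are not reported here. Shares were thinned to 500 UMIs per cell. Loci are from GENCODE M21, whose symbols matched 23394 of 24405 genes. Python 3.11.15, numpy 2.4.6, scipy 1.17.1 and matplotlib 3.10.9 were used, and the ratio rule was tested on simulated counts. Alternatives changed the UMI floor, mitochondrial limit, markers, leukocyte limit, shared barcodes, pseudocount, scaling, count minimum, fold and organ labels.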

Additional observations from a re-analysis of the deposited data

How the results depend on the processing

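No paired analysis was possible because each condition had 1 library, and for the same reason no library could be left out. The kidney libraries gave no value to compare. 12 alternatives were planned and 4, named below as added, were chosen after seeing the data. In the 478 recomputed ratios of single genes between the TIL libraries, 438 kept their direction within their interval, 34 moved beyond it and 6 reversed. This tally depends on the settings chosen. Lifting the mitochondrial limit left the same members, so no ratio could change. The pseudocount, the scaling, the fibroblast limit and the centring moved 0. Of the 34 moves, 15 came with the leukocyte limit and 9 with the floor of 1000 UMIs. Where 1 library had 0 UMIs of a gene, its interval was open on 1 side. Requiring 1000 UMIs per cell left 5 members in the library labelled heart TIL and 7 in the library labelled liver TIL, with 9 and 18 genes 4-fold over the other cells, a sinusoidal level of 3864 CPM in the former, 37 and 33 genes higher in the libraries labelled liver and heart TIL, and a reversed log2 ratio of -7.07 for Fn1. Requiring 4 marker UMIs and 3 detected genes left 16 and 11 members in the TIL libraries, 15 genes 4-fold over others and 35 genes higher in the library labelled liver TIL, and liver PC levels of 9235 CPM (sinusoidal) and 9591 CPM (independent markers), the same as with at least 2 UMIs of the independent markers (added). Allowing at most 2 leukocyte UMIs left 3, 3 and 2 members, and 5 single genes reversed, each resting on at most 2 UMIs per library, a change whose cause was not tested, with log2 ratios of 2.16 for Ackr1, -8.25 for Cxcl11 and S100a9, 9.41 for Fcgr2b and 1.16 for Fcgrt. There, 15, 3 and 3 genes were 4-fold over others, the sinusoidal list was at 14311 and 2722 CPM in liver PC and the library labelled heart TIL, the independent markers at 14311, 8167 and 12899 CPM, 6 and 17 genes were higher in the libraries labelled liver and heart TIL, and the sinusoidal log2 ratio was -2.0 in place of -3.15. Scaling each cell to the same total gave liver PC 8193 CPM (sinusoidal) and 8296 CPM (independent). With a minimum of 20 UMIs per gene, 17, 22 and 11 genes were 4-fold over others and 22 and 35 were higher in the libraries labelled liver and heart TIL, with no minimum 1388, 1200 and 1328, and 2139 and 2494, and at a 3-fold difference 32 and 45. Without the T cell limit (added) there were 19 members in liver PC, 49 in the library labelled heart TIL and 2 in kidney PC, with 72, 96 and 75 genes 4-fold over others, sinusoidal levels of 4475 and 4335 CPM in the first 2, independent markers at 4690.3 CPM in liver PC and 218 genes higher in the library labelled heart TIL. Without the fibroblast limit (added), 64 genes were 4-fold over others and 95 higher in the library labelled liver TIL. With the organ labels of the TIL libraries exchanged, the sinusoidal log2 ratio was 3.15, by construction. The fourth added setting, centring on the median, is given with the calls above. Between 11 and 26 members per library, at 507 to 3002 UMIs each, limit what could be seen: a gene at 0 may lie below 132 to 187 CPM.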

Other observations

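Some genes called between the TIL libraries and at least 2-fold above the other cells were not described above, and those given here were chosen after their values were seen. In the library labelled liver TIL they included annexins, which bind membranes in the presence of calcium. Anxa2 was at 374, 705 and 2096 CPM (6, 16 and 38 UMIs), 2.97-fold (1.62 to 5.71) higher than in the library labelled heart TIL, and Anxa1 had 1, 4 and 15 UMIs. Vim, the intermediate filament vimentin, was at 374, 617 and 2041 CPM (6, 14 and 37 UMIs), a ratio of 3.31-fold (1.75 to 6.62), and Timp3, an inhibitor of matrix proteases, had 5, 6 and 11 UMIs. Towards the library labelled heart TIL, Plpp1, a lipid phosphatase, was at 1061, 1631 and 276 CPM (17, 37 and 5 UMIs), 5.92-fold (2.32 to 19.3) higher than in the library labelled liver TIL. Msr1, a scavenger receptor that macrophages also carry, had 11, 15 and 2 UMIs, a ratio of 6.0-fold (1.39 to 54.0), and Cd55, which limits complement on the cell surface, had 10, 21 and 3 UMIs, a ratio of 5.60-fold (1.67 to 29.3). No test was possible for any of these differences.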
